A study of Homo sapiens with 22 samples.

Results

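Peak lists from 5 of the 22 samples of the series were compared: streptavidin capture of the −KTS form of WT1 in 2 libraries and of its +KTS form in 3. The 5 lists were chosen by their sample labels, and peaks on chromosomes 1 to 22 and X were used. All samples came from K562, a human cell line derived from chronic myeloid leukaemia. Every sample, controls included, stably carried the plasmid pEF1aBirAv5-neo, which supplies BirA, a bacterial enzyme that adds biotin to a short peptide tag, and the cells grew in medium with the drug G418. The −KTS cells also carried pEF1a-Flagbiotin-(WT1+17AA/-KTS)-puro and the +KTS cells pEF1a-Flagbiotin-(WT1+17AA/+KTS)-puro. By the plasmid names, the EF1a promoter, which is active in most cell types, drove the tagged WT1. The level of tagged or of endogenous WT1 was not measured here. Whether each line was 1 clone or a pool of transfectants is not given in the sources used here. The 3 lists from untagged cells, which carried BirA and no tagged WT1, gave the background of the capture. The 5 lists of H3K4me3, a histone mark of active promoters, were used to find stretches of the genome rich in regions called for that mark.

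WT1 is a transcription factor with a row of zinc fingers that is needed for kidney and gonad development and is often expressed in leukaemia. Alternative splicing adds or leaves out lysine, threonine and serine (KTS, in 1-letter code) between the last pair of fingers. The −KTS form binds GC-rich DNA sites that resemble those of the EGR factors, whereas the insert loosens the hold of the fingers on DNA, and the +KTS form is known for its place in nuclear speckles and its ties to RNA and splicing. The comparison asks where on the genome the captured peaks of each form lay.

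The lists differed in length far more within an isoform than the isoforms differed from each other. The −KTS lists held 154455 and 3244 peaks in replicates 1 and 2, and the +KTS lists held 542667, 373141 and 35379 in replicates 1, 2 and 3. The untagged lists held 741, 99 and 311. To compare like with like, each library was reduced to its 3244 best-scoring peaks, the length of the shortest list; these are called equal lists here, and the lists as deposited were read as well. The equal list took 2.1% and 100% of the −KTS lists and 0.598%, 0.869% and 9.17% of the +KTS lists. The lowest score in it was 198 and 50 for −KTS and 218, 221 and 125 for +KTS. In −KTS replicate 2 the equal list therefore reached down to the authors' own limit, while in the other libraries it held only the top of the list.

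Several features of the lists move with the isoform. The lowest deposited score was 50 in both −KTS lists and 13 in all +KTS and untagged lists. Names of the −KTS lists contain the word pooled, without saying what was pooled, and names of the +KTS and untagged lists carry date codes. Isoform, calling and any batch thus cannot be told apart. Read depth is not known from the lists, and nothing says that replicates were separate cultures, so the spread between these libraries may be technical. Permutation p-values rest on these libraries alone, whereas the limma p-values given further on also take their spread from all windows together. With 2 libraries against 3 there are 10 ways to split the samples, and the smallest two-sided exact permutation p is 0.2, so no single value could pass 0.05.

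In the equal lists, the best −KTS peaks recurred in the other −KTS library far more than in any +KTS library. Of the 100 best peaks of −KTS replicate 1, 91 overlapped a peak in the equal list of −KTS replicate 2, and 12, 13 and 3 overlapped one in the equal lists of +KTS replicates 1, 2 and 3. Of the 100 best of −KTS replicate 2, 99 were found in −KTS replicate 1 and 2, 4 and 0 in the +KTS lists. The exact Clopper-Pearson 95% interval of the 91 was 83.6 to 95.8, that of the 12 was 6.36 to 20.02, and such intervals cover counting error only. The −KTS libraries therefore shared nearly all of their strongest peaks although their deposited lists differed most in length.

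The best +KTS peaks were divided less clearly by isoform. The 100 best peaks of +KTS replicate 1 were all found in the equal list of +KTS replicate 2, 51 in that of +KTS replicate 3, 46 in that of −KTS replicate 1 and 5 in that of −KTS replicate 2. Of the best 100 of +KTS replicate 2, 98 recurred in +KTS replicate 1, 35 in +KTS replicate 3, 28 in −KTS replicate 1 and 0 in −KTS replicate 2. Of the best 100 of +KTS replicate 3, 74 and 53 recurred in +KTS replicates 1 and 2, 24 in −KTS replicate 1 and 0 in −KTS replicate 2. Strong +KTS peaks were thus also met in −KTS replicate 1 and hardly at all in −KTS replicate 2.

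**Figure D1:**
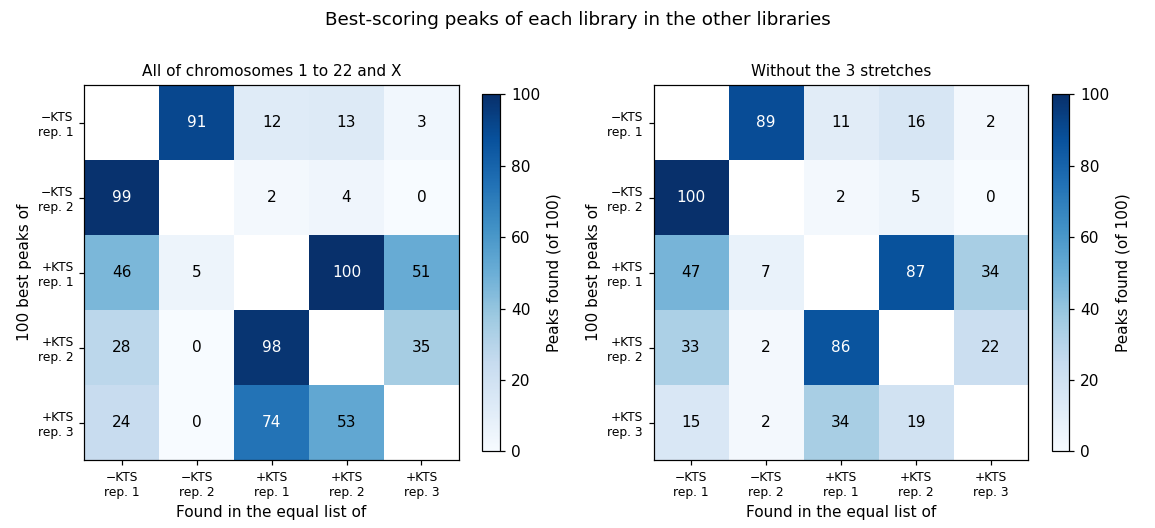
Each cell gives how many of the 100 best-scoring peaks of the library in the row overlap a peak in the equal list of the library in the column, over all chromosomes used and without 3 stretches of chromosomes 22, 9 and 13. Over all chromosomes used the −KTS pair stands out with 91 and 99 peaks found, against 0 to 13 of the −KTS peaks in +KTS lists. Without the 3 stretches it has 89 and 100, against at most 16.

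Membership in the full lists followed neither the isoform alone nor the length of the list alone. The shortest list, −KTS replicate 2, held 91 of the 100 best peaks of −KTS replicate 1. The deposited list of −KTS replicate 1 held all of the 100 best of −KTS replicate 2. Of the 100 best peaks of −KTS replicate 1, 70, 89 and 4 overlapped any deposited peak of +KTS replicates 1, 2 and 3, and of the 100 best of −KTS replicate 2, 45, 78 and 0 did. Most of these places thus had some peak in the long list of +KTS replicate 2 and nearly none in the shorter list of +KTS replicate 3. In the other direction, 95, 86 and 81 of the 100 best peaks of +KTS replicates 1, 2 and 3 overlapped a deposited peak of −KTS replicate 1, and 5, 0 and 0 one of −KTS replicate 2. For +KTS replicates 1 and 2 this was more than in +KTS replicate 3, where 68 and 62 were found. None of the 100 best −KTS peaks of either library overlapped a peak of any untagged library. For the 3 +KTS libraries 4, 3 and 10 did. An H3K4me3 region of any library was overlapped by 62 and 73 of the 100 best −KTS peaks and by 71, 64 and 31 of the 100 best +KTS peaks.

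The leading single peaks are described by their rank in each deposited list. The lists differ in length, so a rank places a peak within its own list and is not compared between lists. On hg19, the build of all positions given here, the peak chr21:47603249-47603984 was the best of −KTS replicate 1 and the second best place in −KTS replicate 2. It was not called in +KTS replicates 1 and 3 and ranked 100536 in +KTS replicate 2. The best peak of −KTS replicate 2, chr6:37611735-37612024, ranked 8 in −KTS replicate 1, 27227 and 147612 in +KTS replicates 1 and 2, and was absent from +KTS replicate 3. Neither overlapped an untagged peak. The first overlapped H3K4me3 regions of 2 libraries and the second none.

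The other leading −KTS peaks were likewise absent from +KTS replicate 3. A peak at chr22:19706471-19706995 ranked 2 and 5 in the −KTS lists, 5840 and 27894 in +KTS replicates 1 and 2, and carried H3K4me3 in all 5 H3K4me3 libraries. One at chr19:14474445-14474712 ranked 20 and 3 in the −KTS lists and 292250 and 282834 in +KTS replicates 1 and 2. The peak chr12:49485899-49486326 had ranks 3 and 31 in −KTS and 3034 and 2947 in +KTS replicates 1 and 2.

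Among leading +KTS peaks, chr17:41399614-41401314 ranked 1, 19 and 2451 in the +KTS replicates and 142 in −KTS replicate 1. The peak chr5:17593711-17595924, which is 2214 bp wide in +KTS replicate 1, ranked 2, 249 and 1 in +KTS and 112 in −KTS replicate 1. Neither was called in −KTS replicate 2. The third of +KTS replicate 1, chr3:195370944-195371716, ranked 3, 247 and 22958 in +KTS and 132187 in −KTS replicate 1. The 3 best peaks of +KTS replicate 2 all lay on chromosome 22 between 23008970 and 23191545. They ranked 67, 52 and 74 in +KTS replicate 1, were absent from +KTS replicate 3 and −KTS replicate 2, and ranked 1969, 6534 and 39924 in −KTS replicate 1. After the chromosome 5 place, the list of +KTS replicate 3 was led by chr22:23466770-23467054, which ranked 14, 43 and 2 in +KTS and 11379 in −KTS replicate 1. Its next peak, chr5:17585373-17585641, ranked 5, 249 and 3 in +KTS and 297 in −KTS replicate 1. All of these leading +KTS places had a peak in −KTS replicate 1, at ranks from 112 to 132187 among its 154455 peaks, and none had one in −KTS replicate 2.

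Long runs of +KTS peaks lay within 3 stretches: chromosome 22 at 17 to 24 Mb, chromosome 9 at 130 to 140 Mb and chromosome 13 at 90 to 94 Mb. The runs did not fill them: chromosome 9 at 135 to 140 Mb held 15 and 28 −KTS peaks and 3, 4 and 4 +KTS peaks of the equal lists. As background, K562 carries a fusion of BCR on chromosome 22 with ABL1 on chromosome 9, in extra copies. Together the stretches held 23.6% and 3.70% of the equal −KTS lists and 51.5%, 40.3% and 13.7% of the equal +KTS lists. The groups overlap, with −KTS replicate 1 above +KTS replicate 3. As deposited the shares were 4.51% and 3.70% for −KTS and 2.01%, 2.71% and 3.69% for +KTS. The −KTS shares were then the higher ones, but −KTS replicate 2 (95% interval 3.08% to 4.41%) and +KTS replicate 3 (3.49% to 3.89%) did not differ beyond counting error. The untagged lists placed 12.01%, 6.06% and 23.5% of their peaks there, and the H3K4me3 lists between 1.53% and 2.18%. Copy number was not measured here, and its part in these shares was not tested.

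The dense runs ended at the same places in −KTS replicate 1 and the +KTS libraries. On chromosome 22, the 0.1 Mb from 23.6 Mb, which BCR spans, held 10 and 0 peaks of the equal −KTS lists and 17, 29 and 11 of the equal +KTS lists, and the next 0.1 Mb held 0 in all 5. On chromosome 9, the 0.1 Mb from 133.5 Mb held 0 and 0 −KTS peaks and 1, 0 and 0 +KTS peaks. The following 0.1 Mb, within ABL1, held 25 and 0 −KTS peaks and 43, 19 and 8 +KTS peaks. In the equal lists the edge was thus seen in −KTS replicate 1 and all +KTS replicates, and −KTS replicate 2 had no peak on either side of it. As deposited, the counts across the chromosome 22 edge went from 70 to 4 in −KTS replicate 1 and from 24 to 0 in +KTS replicate 3, but from 35 to 49 and from 52 to 46 in +KTS replicates 1 and 2. Across the chromosome 9 edge they went from 22 to 76 in −KTS replicate 1 and from 1 to 11 in +KTS replicate 3, against 61 to 66 and 45 to 53 in +KTS replicates 1 and 2. In the full lists of +KTS replicates 1 and 2 the edge was therefore not seen in the number of peaks.

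Because these stretches weigh so differently on the 5 lists, all comparisons were repeated without them, with each library again reduced to the shortest length, 3124 peaks. Leaving them out was chosen after seeing the data. The recurrence of the best −KTS peaks held: 89 and 100 of 100 were found in the other −KTS list, and at most 16 in any +KTS list. Of the 100 best peaks outside the stretches in +KTS replicate 1, 87 recurred in +KTS replicate 2, 34 in +KTS replicate 3, 47 in −KTS replicate 1 and 7 in −KTS replicate 2. Of those of +KTS replicate 2, 86 recurred in +KTS replicate 1, 22 in +KTS replicate 3, 33 in −KTS replicate 1 and 2 in −KTS replicate 2. Outside the stretches +KTS replicate 3 was the library apart, with 34 and 19 of its best 100 found in +KTS replicates 1 and 2 and 15 in −KTS replicate 1.

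By chromosome, the −KTS lists held more of their peaks on chromosomes 8 and 19 and the +KTS lists more on chromosome 7, in equal lists and as deposited alike. Chromosome 19, the most gene-dense chromosome, took 6.84% and 7.71% of the equal −KTS lists and 1.42%, 2.53% and 2.00% of the equal +KTS lists. As deposited its shares were 6.68% and 7.71% against 4.97%, 5.55% and 3.60%. It has 1.95% of the summed length, so the equal −KTS lists were 3.51 and 3.96 times as dense there as overall and the +KTS lists 0.728, 1.30 and 1.03 times. Each of these differences gave the smallest p of the design, 0.2 (two-sided exact permutation test).

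Chromosome 8 held 3.58% and 3.51% of the equal −KTS lists and 0.709%, 0.740% and 1.29% of the equal +KTS lists. The deposited shares were 3.84% and 3.51% against 2.83%, 2.70% and 2.81%. Chromosome 7 went the other way, with 4.41% and 5.64% in −KTS and 7.37%, 7.52% and 9.37% in +KTS, and as deposited 6.23% and 5.64% against 6.68%, 6.71% and 7.78%. No value of one isoform reached into the range of the other on these 3 chromosomes. Of 13 settings for which all chromosomes were compared, −KTS was higher without overlap on chromosomes 8 and 19 in 13, and +KTS was higher on chromosome 7 in 12. These settings, which count the equal lists themselves, are not independent. Leaving a library out of the equal lists cannot create an overlap that they lack, and another seed redrew only tied peaks.

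In all, 7 of the 23 chromosomes (30.4%) had shares in the equal lists that were higher in both −KTS libraries than in every +KTS library: 3, 8, 14, 16, 17, 19 and 21. The reverse held for 1 (4.35%), chromosome 7. As deposited the counts were 3 (13%; chromosomes 8, 9 and 19) and 5 (21.7%; chromosomes 7, 11, 15, 18 and X). The shares of a library sum to 100, so the chromosomes are not independent. Chromosome 22 had the highest mean density in both isoforms in the equal lists. In −KTS this rested on replicate 1, at 10.8 times the overall density, since in −KTS replicate 2 chromosome 22, at 2.05, lay below chromosomes 19 and 17. It held 18.2% and 3.45% of the −KTS lists and 40.6%, 33.05% and 11.1% of the +KTS lists, with overlap between the groups. Chromosome X was at the other end, with 0.894% and 1.39% in −KTS and 0.185%, 0.401% and 1.48% in +KTS for 5.11% of the length.

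Without the 3 stretches the contrast between chromosomes was wider. Shares were then higher in both −KTS libraries on 8 of 23 chromosomes (34.8%) and in all +KTS libraries on 4 (17.4%): chromosomes 1, 6, 7 and 15. Chromosome 7 held 5.70% and 5.86% of the −KTS lists and 16.7%, 12.4% and 10.7% of the +KTS lists, and chromosome 6 held 4.90% and 5.51% against 9.73%, 10.47% and 8.003%. Chromosome 19 held 9.12% and 8.003% against 2.72%, 4.10% and 2.37%. Chromosome 22 turned round outside its stretch, with 1.34% and 1.73% in −KTS and 1.09%, 0.896% and 0.736% in +KTS.

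**Figure D2:**
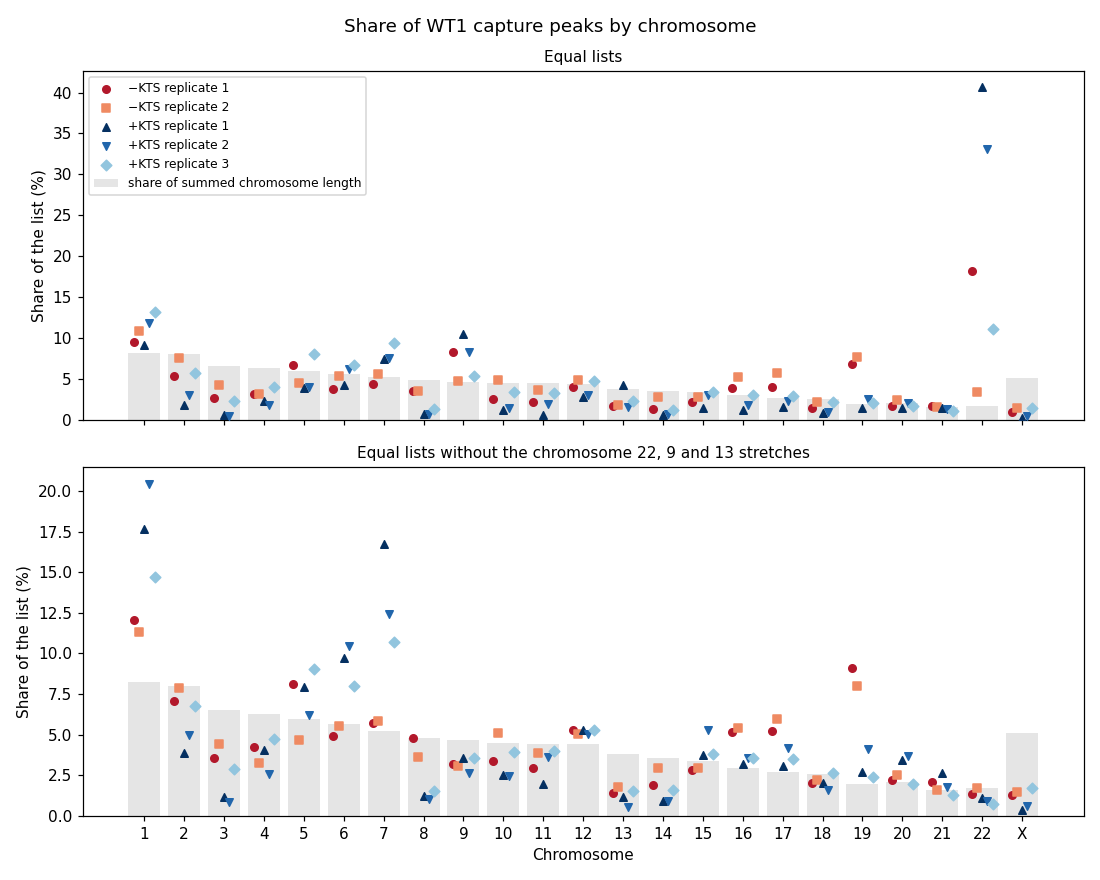
Points give the share of each library's peaks on each chromosome, in equal lists with and without the 3 stretches of chromosomes 22, 9 and 13, and grey bars give the chromosome's share of the summed length. On chromosome 19 the −KTS points, at 6.84% and 7.71% in the equal lists, lie above all +KTS points, and on chromosome 22 the +KTS points reach 40.6%.

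Concentration in few windows overlapped between the isoforms in the equal lists and did not overlap as deposited, with opposite signs. The densest 152 of 3050 windows of 1 Mb, chosen in each library from its own list, held 54.9% and 34.2% of the equal −KTS lists and 82.1%, 71.8% and 36.96% of the equal +KTS lists. The means were 44.6% ± 14.6 (SD, n = 2) and 63.6% ± 23.7 (SD, n = 3), a difference of -19.1 percentage points with an exact permutation p of 0.4, two-sided. Replicate 3 of +KTS lay between the −KTS libraries. As deposited the difference turned to 8.96 percentage points, higher in −KTS, with an exact permutation p of 0.2. The shares were 23.9% and 34.2% against 17.99%, 23.5% and 18.8%, the highest in the shortest list, −KTS replicate 2. With the other lists cut at random to its length, their shares rose and the isoforms overlapped. The shares were then 27.8% and 34.2% against 25.3%, 29.4% and 24.4%. The deposited difference thus cannot be told apart from list length. In equal lists without the 3 stretches the difference was -7.36 percentage points, from 40.7% and 34.3% against 55.8%, 51.4% and 27.2%.

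**Figure D3:**
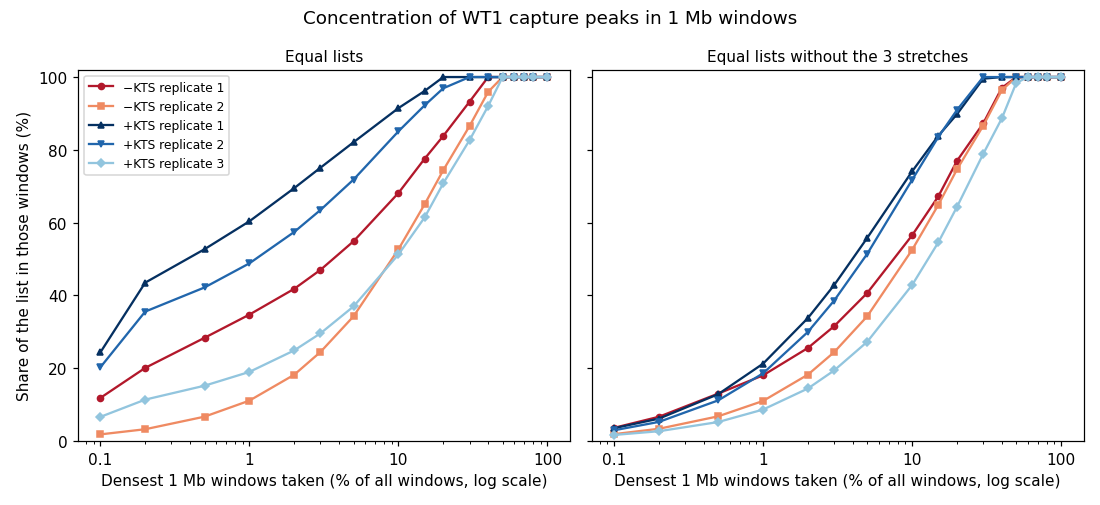
Each line gives the share of a library's peaks (vertical axis) held by its densest 1 Mb windows, taken as a growing share of all windows (log axis), in equal lists with and without the 3 stretches. At 5% of windows the equal lists range from 34.2% in −KTS replicate 2 to 82.1% in +KTS replicate 1.

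The spacing of peaks overlapped between the isoforms in the equal lists, as deposited and without the 3 stretches. For close pairs it did not overlap once −KTS replicate 1 or +KTS replicate 3 was left out of the equal lists. Neighbouring peaks were counted as close when their midpoints lay within 10 kb. This was so for 30.7% and 10.4% of neighbouring pairs in the equal −KTS lists and for 57.5%, 44.9% and 11.9% in the equal +KTS lists, a difference of means of -17.6 percentage points (two-sided exact permutation p = 0.4). Peaks spread evenly at random over the genome would give 1.06%, so all 5 lists were clustered. The −KTS lists had median gaps of 121 and 244 kb, and the +KTS lists of 5.70, 15.2 and 346 kb. As deposited the close pairs were 61.2% and 10.4% against 87.5%, 83.5% and 21.7%, a difference of -28.5 percentage points (two-sided exact permutation p = 0.4). With the 3 stretches left out they were 17.0% and 10.1% against 24.3%, 20.7% and 4.97%, and the median gaps 241 and 260 kb against 92.4, 93.5 and 428 kb. With the stretches kept, each isoform thus had a library of wider spacing, −KTS replicate 2 and +KTS replicate 3, and these are the libraries with the shortest deposited lists. Without the stretches the median gaps of the −KTS libraries lay close together, and by that measure +KTS replicate 3 alone stood apart within its isoform.

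**Figure D4:**
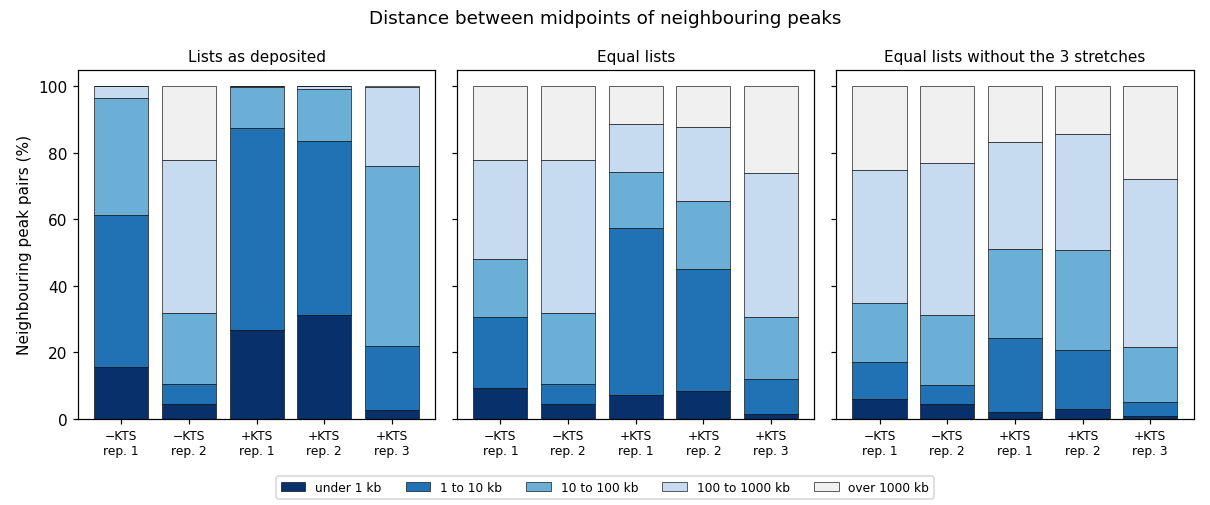
Stacked bars divide the neighbouring pairs of each library by the distance between midpoints, as deposited, in equal lists, and in equal lists without the 3 stretches. In the equal lists pairs under 10 kb make up 57.5% in +KTS replicate 1 and 10.4% in −KTS replicate 2, and the −KTS and +KTS bars interleave.

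Clusters, taken as runs of at least 3 peaks with gaps of at most 10 kb, held 30.6% and 4.59% of the equal −KTS lists and 57.3%, 45.0% and 10.3% of the equal +KTS lists. The difference of means was -19.9 percentage points (two-sided exact permutation p = 0.4). It was -30.1 as deposited, from 62.5% and 4.59% against 89.8%, 85.8% and 15.5%, and -4.16 without the 3 stretches. The largest cluster of every library but −KTS replicate 2 lay on a stretch of chromosome 22 or 9. In −KTS replicate 1 it was chr22:23424023-23625807 with 69 peaks, in +KTS replicate 1 chr9:133780486-134155511 with 165, in +KTS replicate 2 chr9:133715194-133999108 with 131, and in +KTS replicate 3 chr22:23540080-23629631 with 27. The clusters of chromosome 22 run into BCR.

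The leading clusters of −KTS replicate 2 lay elsewhere. Its largest, chr10:42383531-42400699, held 13 of its peaks, 6 of −KTS replicate 1 and 2, 0 and 0 of the +KTS replicates in the equal lists. The next, chr1:228744439-228782531, lies in the array of 5S ribosomal RNA genes, which encode the small RNA of the large ribosomal subunit. It held 33 and 12 peaks of the equal −KTS lists and none of any equal +KTS list. As deposited it held 57 and 12 −KTS peaks and 16, 50 and 0 +KTS peaks, which is 3.69 and 36.99 per 10000 peaks of the list against 0.295, 1.34 and 0. No untagged peak lay in it. Both clusters sit in or beside repeated sequence, and the lists were not checked against a catalogue of unreliable regions.

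With the 3 stretches left out, the largest cluster of −KTS replicate 1 was the same 5S array, with 37 peaks, while the largest clusters of the +KTS lists lay elsewhere. The largest of +KTS replicate 1, chr7:102211765-102290744, held 1 and 1 −KTS peaks and 19, 10 and 0 +KTS peaks of these lists. As deposited it held 4.66 and 3.08 per 10000 peaks of the −KTS lists and 1.29, 1.53 and 1.98 per 10000 of the +KTS lists, so the order of the isoforms turned. That of +KTS replicate 2, chr19:50595754-50642685, held 22 and 0 −KTS peaks and 11, 18 and 1 +KTS peaks. For +KTS replicate 3 it was chr5:21479197-21496698, with 7 and 0 −KTS and 10, 4 and 9 +KTS peaks. All 3 places thus also held peaks of −KTS replicate 1.

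The densest 1 Mb windows shared by the libraries of an isoform show the same split. For +KTS all 5 leading windows were chromosome 22 from 19 to 24 Mb. The window at 21 to 22 Mb held 270, 182 and 76 +KTS peaks and 171 and 10 −KTS peaks of the equal lists. For −KTS the leading 5 were chromosome 22 at 19 to 20 and at 21 to 22 Mb, chromosome 1 at 228 to 229 Mb, chromosome 16 at 46 to 47 Mb and chromosome 2 at 92 to 93 Mb. The chromosome 1 window, which holds the 5S array, had 36 and 16 −KTS peaks against 3, 4 and 0 +KTS peaks. The chromosome 16 window had 28 and 15 against 7, 0 and 0, and the chromosome 2 window 22 and 11 against 3, 4 and 0. The windows of chromosomes 16 and 2 adjoin centromeres, where satellite repeats lie.

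As deposited, 3 of the 5 leading −KTS windows were again on chromosome 22, at 19 to 20, 20 to 21 and 21 to 22 Mb. The other 2 were chromosome 19 at 1 to 2 Mb, with 329 and 16 −KTS and 633, 728 and 22 +KTS peaks, and chromosome 19 at 18 to 19 Mb, with 323 and 15 against 752, 660 and 33. Those of +KTS were chromosome 7 at 2 to 3 and at 157 to 158 Mb, chromosome 16 at 89 to 90 Mb, chromosome 17 at 80 to 81 Mb and chromosome 5 at 1 to 2 Mb. Counts as deposited follow the length of each list, so only ranks within a list are read here. The window of chromosome 7 at 2 to 3 Mb ranked 5, 4 and 7 in the +KTS lists and 67 and 45 in the −KTS lists.

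Over all 3050 windows of 1 Mb, the share of the equal list was higher in both −KTS libraries than in every +KTS library in 9.41% and lower in 2.46%. As deposited the figures were 10.2% and 12.2%. Windows of 5 Mb were tested with limma on log2(peaks + 1), with Benjamini-Hochberg adjustment over the 493 windows that held at least 5 peaks. The spread of a window was taken largely from a trend over all windows. Chromosome 3 at 105 to 110 Mb, with 2 and 3 −KTS peaks, and chromosome 2 at 125 to 130 Mb, with 1 and 5, had the same standard error (SE), 0.916. Both had 0, 0 and 1 +KTS peaks. A limma p-value or SE thus does not measure how far the libraries differed in that window. At an adjusted p under 0.05, 6 windows (1.22%) differed, all higher in −KTS. At an unadjusted limma p under 0.05 there were 70 windows, 55 higher in −KTS (11.2%) and 15 higher in +KTS (3.04%).

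The window with the smallest p was the tip of the short arm of chromosome 19, from 0 to 5 Mb. It held 37 and 55 −KTS peaks and 4, 1 and 8 +KTS peaks. On the log2(peaks + 1) scale the difference was 3.36 (SE 0.71), with a limma Benjamini-Hochberg adjusted p of 0.00105. On the same arm, 10 to 15 Mb held 23 and 35 −KTS against 1, 5 and 4 +KTS peaks, a difference of 2.91 (SE 0.73). Chromosome 14 at 100 to 105 Mb held 10 and 25 against 0, 0 and 2, and chromosome 8 at 140 to 145 Mb held 12 and 18 against 1, 1 and 0. The other 2 windows adjoin centromeres: chromosome 16 at 45 to 50 Mb with 28 and 17 against 7, 0 and 2, and chromosome 10 at 40 to 45 Mb with 13 and 29 against 7, 1 and 0. In all 6 the −KTS counts lay above all +KTS counts.

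The next 4 windows by p did not pass, each at a limma Benjamini-Hochberg adjusted p of 0.0892. Chromosome 17 at 0 to 5 Mb had 10 and 19 −KTS peaks against 1, 1 and 2 +KTS peaks. Chromosome 8 at 25 to 30 Mb had 5 and 11 against 0 in all +KTS lists, and chromosome 22 at 35 to 40 Mb had 5 and 18 against 0, 0 and 1. Chromosome 1 at 230 to 235 Mb was the one window of the first 10 with more +KTS peaks, 1 and 4 −KTS against 12, 20 and 12 +KTS.

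The count of 6 depended on the lists used. No window passed in the lists as deposited, where 51 had an unadjusted limma p under 0.05, 10 higher in −KTS and 41 higher in +KTS. None passed after leaving out either −KTS library, +KTS replicate 1 or +KTS replicate 2, and 54 passed, all higher in −KTS, after leaving out +KTS replicate 3. Without the 3 stretches 13 of 518 windows (2.51%) passed, 8 higher in −KTS and 5 higher in +KTS. The 8 included both windows of chromosome 19, with 41 and 55 −KTS against 10, 3 and 9 +KTS peaks at 0 to 5 Mb and a limma Benjamini-Hochberg adjusted p of 0.0415. Among the 5 higher in +KTS was chromosome 1 at 230 to 235 Mb, with 2 and 4 against 24, 29 and 15, a difference of -2.56 (SE 0.61). Another was chromosome 15 at 20 to 25 Mb, with 7 and 3 −KTS against 47, 21 and 22 +KTS peaks. Chromosome 7 at 130 to 135 Mb, with 3 and 1 against 14, 22 and 7, was also among them.

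Whole profiles grouped by isoform or not, depending on the measure and the lists. Pearson's r of the peaks per 1 Mb window over 3050 windows of the equal lists was 0.36 between the −KTS libraries and 0.97, 0.90 and 0.90 among the +KTS libraries. It was 0.90, 0.88 and 0.86 between −KTS replicate 1 and the +KTS libraries, and 0.23, 0.25 and 0.26 between −KTS replicate 2 and them. Windows share a genome and its gene density, so these values are a description. Without the 3 stretches the −KTS pair stood at 0.49, −KTS replicate 1 against +KTS at 0.49, 0.47 and 0.41, −KTS replicate 2 against +KTS at 0.25, 0.32 and 0.22, and the +KTS pairs at 0.79, 0.50 and 0.48. As deposited r was 0.63 for the −KTS pair, 0.73, 0.68 and 0.82 for −KTS replicate 1 against +KTS, 0.65, 0.68 and 0.54 for −KTS replicate 2 against +KTS, and 0.97, 0.75 and 0.73 for the +KTS pairs.

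Spearman's rho, which gives the few crowded windows less weight, was 0.52 in the equal lists for the −KTS pair and 0.57, 0.39 and 0.41 for the +KTS pairs. Pairs of different isoforms lay between 0.29 and 0.41. With the 3 stretches left out, rho was 0.51 for the −KTS pair and 0.64, 0.435 and 0.435 for the +KTS pairs, all above the pairs of different isoforms, which lay between 0.30 and 0.433. As deposited rho was 0.60 for the −KTS pair, 0.99, 0.84 and 0.83 for the +KTS pairs and 0.55 to 0.86 across isoforms. By rho the equal lists outside the stretches were thus ordered by isoform, by a narrow margin for +KTS replicate 3, and the deposited lists were not.

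At the scale of single peaks, 26.4% of the equal-list peaks of −KTS replicate 1 had a peak of −KTS replicate 2 within 1 kb, and 21.5%, 16.1% and 8.94% had one of +KTS replicates 1, 2 and 3. For −KTS replicate 2 the shares were 26.4% for −KTS replicate 1 and 2.096%, 2.28% and 0.771% for +KTS. Without the 3 stretches, 27.02% of the equal-list peaks of −KTS replicate 1 had a peak of −KTS replicate 2 within 1 kb, against 9.67%, 7.78% and 5.22% with a peak of +KTS replicates 1, 2 and 3. For −KTS replicate 2 the figures were 26.95% for −KTS replicate 1 and 2.21%, 2.24% and 0.512% for +KTS. Peaks of +KTS replicate 1 met one of +KTS replicate 2 in 22.6%, one of +KTS replicate 3 in 7.43% and one of −KTS replicate 1 in 8.003%. Peaks of +KTS replicate 3 met one of +KTS replicate 1 in 7.52%, one of +KTS replicate 2 in 3.94% and one of −KTS replicate 1 in 4.48%. The contrast between −KTS replicate 1 and +KTS thus widened when the stretches were left out.

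All 5 equal lists were enriched in stretches rich in H3K4me3. The 610 windows of 1 Mb with the most H3K4me3 regions, 20% of all windows, held 46.6% of the merged H3K4me3 regions. Some of these windows adjoin centromeres, such as chromosome 10 at 42 to 43 Mb with 143 merged regions and chromosome 16 at 46 to 47 Mb with 107. The number of regions in a window is therefore not a measure of active promoters alone. The 610 windows held 68.7% and 59.8% of the equal −KTS lists and 80.2%, 80.1% and 49.8% of the equal +KTS lists. The difference of means was -5.81 percentage points (two-sided exact permutation p = 0.6). It was 8.08 as deposited, with 50.01% and 59.8% against 46.03%, 51.5% and 42.96%, and 1.28 without the 3 stretches, so it had no stable sign. The untagged lists held 36.7%, 33.3% and 53.1% of their peaks there.

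Loci known for roles in blood cells, for WT1 targets or for kidney and gonad development were read in windows of whole Mb on hg19, 37 in all. Each window holds other genes too, so a count belongs to the stretch and not to the gene that names it. In the equal lists 9 of 37 loci had shares higher in both −KTS libraries than in every +KTS library, and none had the reverse. Of the 29 loci of 1 Mb, 8 did (27.6%), where 9.41% of all 1 Mb windows did. Most of these loci lie in stretches rich in H3K4me3: 20 of the 29 were in such windows, and 8 of these were higher in −KTS (40%). Of all windows rich in H3K4me3, which include some beside centromeres, 22.3% were higher in −KTS and 6.56% in +KTS. The loci were chosen with earlier results of these data known, so a share above that of all windows cannot be told apart from that choice. Among the 8, KLF1, AMH and NPHS1 lie on chromosome 19, whose share as a whole was higher in −KTS. Several of the 9 rest on few peaks: at KLF1, IGF2 and HOXA the lower −KTS count was 1 peak above the highest +KTS count. Without the stretches of chromosomes 22, 9 and 13, 8 of 37 loci were higher in −KTS without overlap and 2 in +KTS. Of the 29 loci of 1 Mb, 6 were then higher in −KTS and 1 in +KTS. The absence of loci higher in +KTS thus did not hold without the stretches.

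Erythroid loci came first, since K562 resembles early red cells. The alpha-globin cluster on chromosome 16, which encodes a chain of haemoglobin, had 7 and 13 −KTS peaks and 1, 0 and 0 +KTS peaks in the equal lists. The beta-globin cluster had 2 and 1 against 1, 1 and 0, with overlap. The window of GATA1, the master factor of red cells, had 2 and 2 against 0 in all +KTS lists, and that of KLF1, which switches on adult globin, had 3 and 5 against 0, 1 and 2. TAL1 and LMO2, partners of GATA1, had overlapping counts of 2 and 3 against 0, 4 and 3, and of 1 and 3 against 0, 1 and 1. For RUNX1, a factor of blood stem cells, 1 and 0 against 0, 0 and 0 peaks were seen.

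Loci of genes named as WT1 targets in blood cells and of growth factors were mixed. The window of IRF8, a myeloid factor, had 5 and 12 −KTS peaks against 2, 3 and 2 +KTS peaks, and that of QPRT, an enzyme of NAD synthesis, had 3 and 6 against 2, 4 and 4. IGF2, a fetal growth factor, had 2 and 7 against 0, 0 and 1 in its window. VEGFA and PDGFA, growth factors of vessels and connective tissue, overlapped, with 3 and 6 against 0, 3 and 0 and with 2 and 7 against 7, 6 and 2. The window of AREG, an EGF-family ligand, had no peak in any equal list.

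Among genes of cell death and arrest, the window of CDKN1A, an inhibitor of the cell cycle, had 2 and 4 −KTS peaks and 2, 12 and 4 +KTS peaks in the equal lists. The window of BAK1, which opens mitochondria in apoptosis, had 2 and 4 against 5, 15 and 3, and that of BCL2, which keeps them closed, had 1 and 0 against 0, 0 and 1. All 3 overlapped between the isoforms. The window of CDKN2A, a tumour suppressor deleted in K562, had no peak in any equal list and 3, 0, 1, 2 and 0 in the 5 deposited lists.

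EGR2, a factor with WT1-like fingers, had no peak in its window in any equal list, and NAB2, a corepressor of the EGR family, had 1 and 6 −KTS against 0, 3 and 1 +KTS peaks. The HOXA cluster, which patterns the body axis, had 3 and 3 against 2, 1 and 2. HOXB, with 2 and 3 against 0, 3 and 2, and HOXC, with 6 and 5 against 1, 5 and 1, overlapped between the isoforms. Gene clusters of chromosomes 6 and 19 overlapped too. The histone genes of chromosome 6, which package DNA, had 11 and 1 against 8, 17 and 12, and the major histocompatibility complex, which holds antigen-presenting genes, had 14 and 17 against 8, 18 and 11. The zinc-finger genes of 19p12 had 2 and 1 against 0, 1 and 2, and those of 19q13 had 1 and 4 against 1, 1 and 1. The short arm of chromosome 19, 20 Mb long, had 87 and 131 −KTS peaks against 19, 30 and 24 +KTS peaks, the largest gap in counts among the loci without overlap.

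Of the kidney and gonad genes, the window of NPHS1, which encodes nephrin of the kidney filter, had 17 and 4 −KTS peaks and 0, 0 and 2 +KTS peaks. The window of AMH, the hormone that removes the Müllerian ducts, had 6 and 7 against 2, 0 and 3. WNT4, a signal of ovary and kidney development, had 2 and 0 against 0, 0 and 3, and GDNF, the signal that starts the ureteric bud, 3 and 0 against 1, 1 and 2. Both NPHS1 and AMH lie on chromosome 19. WT1's own window had 0 and 2 against 0, 0 and 3, and that of TERT, the catalytic part of telomerase, had 2 and 6 against 4, 2 and 3.

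By the mean over libraries, the highest densities in both isoforms were on the chromosome 22 and 9 stretches and in the window of BASP1, a corepressor partner of WT1. In −KTS this rested on replicate 1. In −KTS replicate 2 the chromosome 22 and 9 stretches, at 7.75 and 5.52 times the overall density, lay below the alpha-globin cluster at 12.2 and IRF8 at 11.2. The BASP1 window had 31 and 0 −KTS peaks and 12, 22 and 18 +KTS peaks in the equal lists, and 89 and 0 against 167, 96 and 32 as deposited. The wide peak at chr5:17593711-17595924 lies in it, within a cluster at chr5:17580664-17599636. Without the 3 stretches that short cluster held 18 and 0 −KTS peaks and 7, 14 and 8 +KTS peaks. It was not assigned to BASP1 or to any other gene. The chromosome 13 stretch and BAK1 followed in +KTS, and NPHS1 and the alpha-globin cluster in −KTS.

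**Figure D5:**
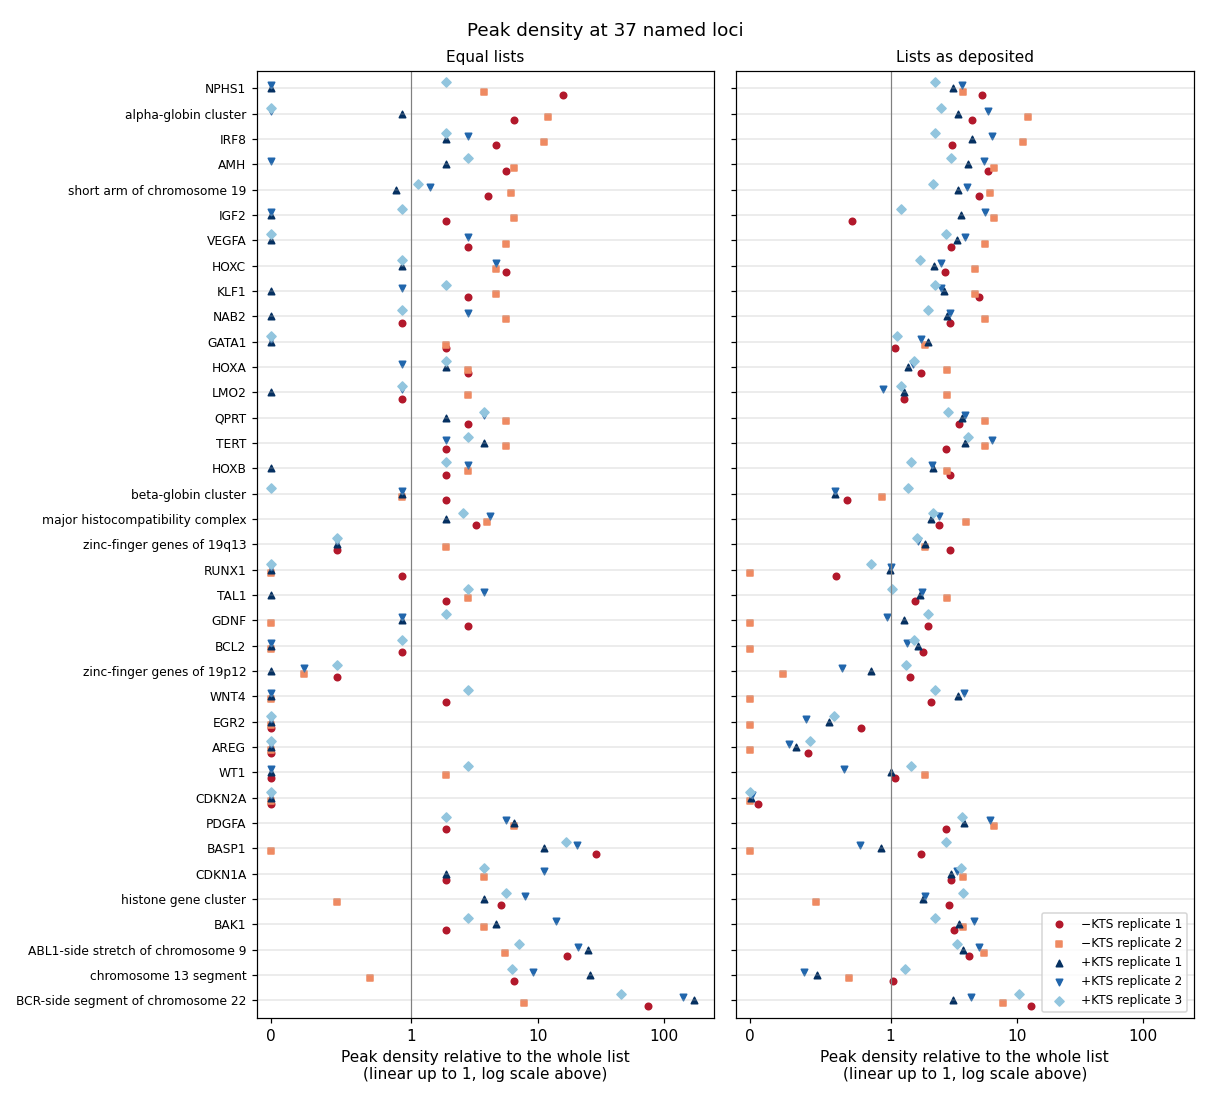
Points give the peak density of each library at the 37 loci relative to its whole list (linear up to 1, log scale above), in equal lists and as deposited. In the equal lists no locus has all +KTS points above the −KTS points, and the short arm of chromosome 19 has its −KTS points at 4.07 and 6.13 and its +KTS points at 0.889, 1.40 and 1.12.

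As deposited, 8 of 37 loci were higher in both −KTS lists without overlap (LMO2, KLF1, HOXA, HOXB, HOXC, the short arm of chromosome 19, AMH and NPHS1) and 2 in the +KTS lists (RUNX1 and WNT4). Of the 29 loci of 1 Mb, 7 were higher in −KTS (24.1%) and 2 in +KTS (6.90%), where 10.2% and 12.2% of all windows were. Among windows rich in H3K4me3, 7 of 20 loci and 19.5% of all windows were higher in −KTS, while 0 of 20 and 12.8% were higher in +KTS. These shares are limited by the choice of loci, as in the equal lists. At RUNX1 and WNT4 −KTS replicate 2 had no peak in its short list. For 5 loci −KTS was higher in both settings: KLF1, HOXA, the short arm of chromosome 19, AMH and NPHS1. The windows of KLF1 and AMH lie inside that short arm, and that of NPHS1 is on the same chromosome. Apart from HOXA these loci thus repeat the difference seen for chromosome 19. How many of all 1 Mb windows were higher in both settings was not counted. KLF1 took 0.166% and 0.154% of the deposited −KTS lists and 0.0872%, 0.0831% and 0.0735% of the +KTS lists. At the alpha-globin cluster the deposited shares were 0.144% and 0.401% against 0.113%, 0.193% and 0.0820%, so that the isoforms overlapped.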

How the data were processed

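The authors deposited 1 peak list per library with a whole-number score per peak, per the file contents. The submitters' processing notes name Bowtie2 2.2.7, MACS2 2.1.1.20160226 and hg19. No source used here gives the kind of value behind the deposited score, the control or the threshold, so the score only ranked peaks within a list, and equal scores need not mean equal stringency. Ties at the end of an equal list were drawn with a fixed seed. An overlap meant at least 1 shared bp, and windows took peaks by midpoint. Python 3.11.15 (numpy 2.4.6, pandas 2.3.3, scipy 1.17.1) and R 4.3.3 with limma 3.58.1 (trend, pseudocount 1) were used. The code of the measures and of the limma fit was run on simulated data. The simulated counts for limma had equal noise in every library, unlike these lists, so that run does not show whether the limma calls hold.

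The text names the 5 windows of 1 Mb with the best worst rank per isoform, chromosomes without overlap in both settings, the 10 windows of 5 Mb of smallest p, the largest cluster and 3 best peaks of each library, and loci without overlap or of highest density. Other loci are given for completeness. Members, loci and lists were chosen with earlier results of these data known. Loci were placed on hg19 by hand at 1 Mb resolution. All 41 of their genes matched in chromosome and lay within 3 Mb in RefSeq's GRCh38.p14 table. The 9 input libraries were not analysed here. No sequence is given. 1 locus of the list is not reported here.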

Additional observations from a re-analysis of the deposited data

How the results depend on the processing

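Signs of the concentration measures followed how the lists were drawn. The difference (−KTS minus +KTS, percentage points) in the densest 1 Mb windows turned to 8.96 as deposited, 8.08 at a score of at least 50 and 4.65 in a random draw of equal length. That of close pairs turned to 4.09 in the random draw and 1.03 within 1 kb, and that of clusters to 2.18 in the random draw. For windows rich in H3K4me3 it turned to 8.08 as deposited, 6.80 at a score of at least 50, 8.82 in the random draw, 1.28 without the 3 stretches and 2.204 with H3K4me3 regions of all 5 libraries. Leaving out 1 library gave -32.4 to -8.75, -30.7 to -7.39, -33.5 to -6.91 and -15.9 to -0.709 for these 4 measures, with the lowest values without +KTS replicate 3 and the highest without −KTS replicate 2 (H3K4me3: without +KTS replicate 1). The causes were not tested.

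Chromosomes without overlap numbered 13 at a score of at least 50 and 15 with lists of the 4 longer libraries (8 in the equal lists), and 9 to 18 with 1 library left out, 15 without −KTS replicate 1 and 18 without +KTS replicate 3. Loci without overlap numbered 18 with the 4 longer libraries (9 in the equal lists), and 10 to 21 with 1 library left out, 21 and 15 without −KTS replicates 1 and 2. With fewer libraries fewer values must be kept apart, and the 4 longer libraries include only 1 of −KTS. Shares over all 1 Mb windows were not counted in these settings, so the counts of loci are not a result about the loci. Windows called by limma at a Benjamini-Hochberg adjusted p under 0.05 numbered 0 as deposited, at a score of at least 50, in the 1000 best peaks and in the random draw (51, 64, 68 and 38 at an unadjusted p under 0.05), 2 with no filter on low windows, 13 without the 3 stretches, and 0 to 54 with 1 library left out. The lists of the 4 longer libraries gave 9 windows, all higher in +KTS.

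The replicate numbers shared by the isoforms did not mark a known pairing. Deviations of same-numbered libraries correlated at 0.186 and 0.00883 for numbers 1 and 2. With the replicate block, over 2 pairs and so without +KTS replicate 3, the 4 measures stood at -32.4, -30.7, -33.5 and -15.9. Limma then called 0 windows (159 at an unadjusted p under 0.05). On 20 chromosomes and at 17 loci both pairs differed in the same direction. That is a looser count than the one of shares without overlap, so the counts are not compared. The matching count over all 1 Mb windows was not taken.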
